A study of Mus musculus with 2 samples.

Results

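The genes for periostin, tenascin C, SPARC, SPARC-like 1, osteopontin and thrombospondins 1 and 2 (Postn, Tnc, Sparc, Sparcl1, Spp1, Thbs1 and Thbs2) were followed across the cell classes of the neonatal mouse heart. They were taken by symbol and are 7 of the 31053 genes in the count tables, and all 7 were found in both libraries. Hearts of postnatal day 1 (P1) and postnatal day 7 (P7) mice were digested, live single cells were sorted, and 3 hearts of a litter were pooled into 1 droplet 3′ single cell RNA-seq library per age. The mice were not treated, and the labels name no genotype or allele. Digestion lasted 20 min for the P1 hearts and 45 min for the P7 hearts. With 1 library per age there was no replicate and no test, so every interval below is a 95% interval that covers counting error only.

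Barcodes with 200 to 8000 genes and at most 20% mitochondrial UMIs (unique molecular identifiers, each counting 1 captured RNA molecule) were kept, which left 4991 cells at P1 and 8511 cells at P7. Cells were then placed in 7 classes by marker genes, and UMIs were summed over a class and scaled to CPM, the UMIs of a gene per 1000000 UMIs of that class. Reads came from the 3′ end of each RNA, so CPM of different genes can be set side by side without a correction for length. Endothelium was gated on Cdh5, endocardium on Cdh5 with Npr3, fibroblasts on Pdgfra, valve-type cells on Fmod with Scx, smooth muscle cells on Myh11, pericytes on Kcnj8 and macrophages on Csf1r. In that order the classes held 1308, 312, 911, 211, 153, 193 and 203 cells at P1, and 3106, 95, 1937, 104, 395, 345 and 199 cells at P7. Cells that passed the gates of more than 1 lineage, 173 at P1 and 339 at P7, were left out of the classes.

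These proteins are matricellular: they are secreted into the extracellular matrix, where they bind collagens, growth factors and cell surface receptors more than they build fibres. Periostin and tenascin C mark developing valves and activated fibroblasts, SPARC is a collagen-binding protein needed for collagen assembly, and SPARC-like 1 (hevin) is its close relative. Thrombospondins 1 and 2 bind CD36 and CD47 and restrain vessel growth, and thrombospondin 1 can activate latent TGF-beta. Osteopontin is an integrin and CD44 ligand known from bone and from activated macrophages.

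Postn lies on chromosome 3 (54361109 to 54391037, plus strand), Tnc on chromosome 4 (63959785 to 64047015, minus strand), Sparc on chromosome 11 (55394500 to 55423183, minus strand), Thbs1 on chromosome 2 (118111876 to 118127133, plus strand) and Thbs2 on chromosome 17 (14665500 to 14694235, minus strand) of GRCm38 in the GENCODE annotation. Sparcl1 (104079111 to 104113733, minus strand) and Spp1 (104435118 to 104441050, plus strand) both lie on chromosome 5, separated by 321384 bases. Dspp, Dmp1, Ibsp and Mepe lie between them, and other genes there were not searched for. The 250 bases before the start sites of Postn, Tnc and Thbs2 are shown because the levels of these genes over the classes were alike, as given further on. The sequences are the RefSeq windows on GRCm38.p6, at chr3:54360857-54361106 (plus strand), chr4:64047016-64047265 (minus strand) and chr17:14694263-14694512 (minus strand), written 5′ to 3′ and ending at the base before the RefSeq start. Capitals mark matches, on either strand, to the letters TATAA (the TATA box), to CCAAT (the CCAAT box), to GGGCGG (the GC box) or to TGACTCA (the AP-1 site).
Postn: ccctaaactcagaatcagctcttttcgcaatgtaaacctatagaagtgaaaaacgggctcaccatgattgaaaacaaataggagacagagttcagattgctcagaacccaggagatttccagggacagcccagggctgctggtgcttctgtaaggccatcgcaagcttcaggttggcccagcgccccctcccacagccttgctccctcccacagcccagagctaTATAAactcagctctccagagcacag
Tnc: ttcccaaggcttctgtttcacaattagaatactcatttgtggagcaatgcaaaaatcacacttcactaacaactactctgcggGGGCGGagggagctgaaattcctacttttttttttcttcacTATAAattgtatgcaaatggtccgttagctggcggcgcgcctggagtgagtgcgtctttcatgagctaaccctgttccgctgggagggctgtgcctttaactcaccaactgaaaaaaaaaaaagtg
Thbs2: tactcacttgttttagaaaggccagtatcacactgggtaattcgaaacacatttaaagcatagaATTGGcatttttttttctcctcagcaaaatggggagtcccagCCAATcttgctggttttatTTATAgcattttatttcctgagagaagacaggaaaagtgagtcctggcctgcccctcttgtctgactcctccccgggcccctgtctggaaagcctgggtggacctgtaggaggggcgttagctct

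The Postn window held TATAA from base 26 to base 22 before the start. In the Tnc window TATAA lay from base 126 to base 122 and GGGCGG from base 167 to base 162 before the start. The Thbs2 window held CCAAT from base 144 to base 140, the same letters on the other strand from base 186 to base 182, and TATAA on the other strand from base 125 to base 121. The letters TGACTCA were in none of the 3 windows. Of 32851 RefSeq windows of this length, 22.8% held TATAA, 33.9% CCAAT, 32.7% GGGCGG and 4.46% TGACTCA. The letters of the TATA box were thus in all 3 windows when both strands are counted, at different distances from the start, and a match is a description of the letters only.

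Depth was similar in the 2 libraries, with a median of 10875 UMIs per kept cell at P1 and 10104 at P7. Of 5 check genes per class, all 5 were at least 2-fold higher inside the gate than outside it in each class and library, except for the endocardium at P1 with 4 of 5. Sex was not matched either: Xist gave 57336 UMIs at P1 and 12 at P7 while 4 Y-linked genes gave 2 and 18039, so that age, sex and digestion time cannot be told apart. Lung-like cells, those with a UMI of Foxf1, Hoxa5 or Tbx4 or with several alveolar genes, numbered 445 at P1 and 232 at P7. A lymphocyte gate without cells holding S100a8 or Fcer1g (30 cells at P1 and 283 at P7, median UMIs 5070 and 5183) served as the class that should lack Postn, Sparc, Sparcl1, Tnc and Thbs2. It gave 44.5 and 241 CPM of Postn, 356 and 997 CPM of Sparc and 5.56 and 189 CPM of Sparcl1 in the P1 and P7 libraries, and levels or shares of cells at or below these are read as background. At P1 this gate held only 8 UMIs of Postn and 64 of Sparc, 43 of the latter in 1 cell. The whole lymphocyte gate (101 and 327 cells) had 162 and 321 CPM of Postn and 747 and 1054 CPM of Sparc. The P1 background thus depends on the gate.

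All 7 genes were lower at P1 than at P7 in all kept cells by summed UMIs, 6 of them by less than 2-fold and Sparcl1 by more. As a mean of the CPM of single cells, Thbs1 (log2 ratio 0.37 in place of -0.16) and Tnc (0.09 in place of -0.12) were higher at P1 instead. The log2 ratio of P1 to P7 had a median of -0.29 over the 7 genes and of 0.00 over all genes tested. In all kept cells 0 of 7 genes were at least 2-fold higher at P1, against 8.88% of 16552 genes tested, and 1 of 7, Sparcl1, was at least 2-fold higher at P7, against 4.07%. A gene was tested in a class if it had at least 20 UMIs over both libraries. In the endothelium 0 of 6 were 2-fold higher at P1 (3.95% of all genes) and 0 at P7 (4.24%), and in the endocardium 0 of 6 at P1 (3.75%) and 2 at P7 (4.46%), Tnc and Thbs2. Fibroblasts had 1 of 7 higher at P1 (5.79%), Spp1, and 2 at P7 (4.61%), Sparcl1 and Thbs1. Valve-type cells had 0 of 7 at P1 (4.10%) and 1 at P7 (2.77%), Spp1, and smooth muscle cells had 1 of 6 at P1 (4.78%), Tnc, and 1 at P7 (3.11%), Sparcl1. Among pericytes 1 of 7 was higher at P1 (3.20%), Tnc, and 1 at P7 (2.81%), Spp1, and among macrophages 0 of 6 at P1 (3.09%) and 2 at P7 (4.92%), Postn and Sparcl1. Several of these calls rested on few UMIs, on 1 cell or on levels at the lymphocyte background, as given with each gene.

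**Figure D1:**
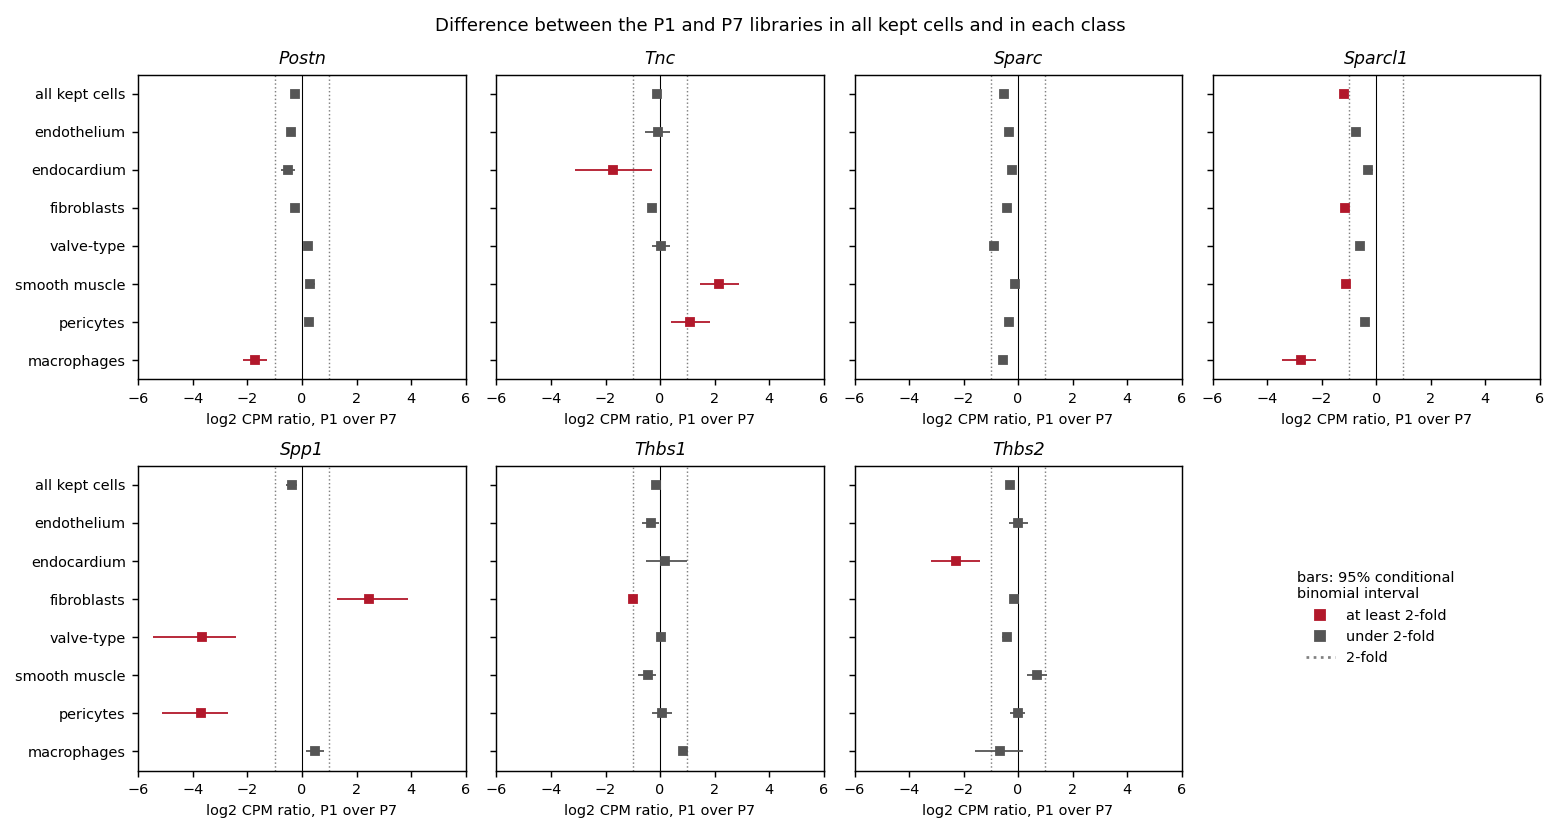
Log2 CPM ratio of P1 over P7 for each gene, in all kept cells and in 7 classes, with 95% conditional binomial intervals; genes with fewer than 20 UMIs over both libraries are not drawn. Sparcl1 lay at -1.19 in all kept cells and left of 0 in all 7 classes, while most other values lay between the dotted 2-fold lines.

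Postn, the fibroblast and valve matricellular gene that helps collagen fibres cross-link, was a gene of fibroblasts, valve-type cells and pericytes at both ages. Its level was 3806 CPM at P1 and 3238 CPM at P7 in valve-type cells, 2632 and 3181 CPM in fibroblasts, and 1504 and 1260 CPM in pericytes. At P1 valve-type cells stood 1.45-fold above fibroblasts, beyond counting error, while at P7 the 2 classes were within it (1.02-fold, log2 interval -0.01 to 0.06). Smooth muscle cells had 253 and 206 CPM and the endothelium 76.0 and 101 CPM. At P7 both were below the lymphocyte background of 241 CPM, which came from 62 of 283 cells, with 86 of its 454 UMIs in 1 cell. At P1 both were above its 44.5 CPM (19.2 to 87.7), though this interval holds the endothelial level. Against the whole lymphocyte gate, with 162 CPM at P1 and 321 CPM at P7, the endothelium was lower at both ages. Smooth muscle cells were above that gate at P1 only. Fibroblasts held 48.0% of all Postn UMIs at P1 and 63.5% at P7, with 26.4% and 35.0% of the UMIs of all genes. Cells in none of the gates, further ones included, held 21.9% and 21.1% of the Postn UMIs, at 2064 and 2601 CPM. Nearly every fibroblast had the transcript, 98.2% of cells at P1 and 99.9% at P7. Once cells had been drawn down at random to 2000 UMIs each, which removes differences in depth, the shares were 91.1% and 98.1%. After this thinning 29.9% and 21.6% of smooth muscle cells had a UMI, above the 10% and 12.9% of lymphocytes. In the endothelium 8.04% and 9.04% of cells did, below the lymphocyte shares. Its difference between the ages was small in these classes, at a log2 ratio of -0.27 (-0.29 to -0.26) in fibroblasts, 0.23 (0.19 to 0.28) in valve-type cells and 0.26 (0.19 to 0.32) in pericytes. Macrophages had 25.1 CPM at P1 and 82.6 at P7, and their thinned shares of cells with a UMI (5.13% and 8.63%) were below those of lymphocytes (10% and 12.9%), so this 2-fold difference lies at background. Outside the 7 classes, the few glial-gated cells (11 at P1 and 22 at P7) had 2302 and 2400 CPM, and the epicardial gate (40 and 17 cells, of which 23 and 2 were lung-like) had only 12 and 2 UMIs.

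Within fibroblasts Postn varied little with the genes that divide them into subsets. Cells with a UMI of Pi16, a marker of adventitial-type fibroblasts, had 2793 CPM and those without it 2580 CPM at P1, and 3192 and 3149 CPM at P7. Cells with Gdf10, a BMP family gene, were lower at both ages, with 2137 against 2745 CPM at P1 and 2483 against 3240 CPM at P7. Dividing fibroblasts, with a UMI of Mki67 or Top2a, had 2912 against 2532 CPM at P1 and 3090 against 3199 CPM at P7. No split of Postn among these reached 2-fold.

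Tnc, the modular matrix protein of remodelling tissue, was a low-level transcript with the same leading classes. Its level was 74.9 and 73.6 CPM in valve-type cells of P1 and P7 hearts and 36.6 and 44.9 CPM in fibroblasts, so valve-type cells were 2.04-fold and 1.64-fold above fibroblasts, beyond counting error at both ages. Only the glial gate was higher, with 39 UMIs in 11 cells at P1 (286 CPM) and 72 UMIs in 22 cells at P7 (264 CPM). Cells in none of the gates had 50.15 and 48.8 CPM and held 29.23% and 24.25% of the Tnc UMIs. In mural cells Tnc was higher at P1, and its P7 levels there were near the lymphocyte background. Smooth muscle cells had 51 UMIs at P1 and 26 at P7 (27.2 and 6.09 CPM), a log2 ratio of 2.14 (1.45 to 2.90), and pericytes had 42 and 29 UMIs (20.6 and 9.63 CPM), a log2 ratio of 1.09 (0.38 to 1.84). Macrophages had 0 UMIs of Tnc at P1, with an upper limit of 1.49 CPM, and 0.45 CPM at P7 (0.01 to 2.51), below the mural levels. Lymphocytes had 0 UMIs of Tnc at P1, with an upper limit of 20.5 CPM, and 5.30 CPM at P7 (2.54 to 9.75), an interval that holds both P7 mural levels. Lung-like cells moved with both: without them smooth muscle cells had 16.0 CPM at P1 and 6.12 at P7, with a log2 ratio of 1.38, and pericytes had 16.4 and 10.5 CPM, with a log2 ratio of 0.64 that no longer reached 2-fold. Both P1 levels without lung-like cells lay under the P1 lymphocyte upper limit of 20.5 CPM. In the endocardium 10 UMIs at each age gave 2.37 CPM at P1 and 7.76 at P7, and after thinning no endocardial cell had a UMI of Tnc at either age. The P7 endocardial level also lies within the P7 lymphocyte interval, and the P1 level is under the P1 lymphocyte limit.

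Among P7 fibroblasts Tnc was the member that differed most between Pi16 subsets. Cells without Pi16 had 77.4 CPM and cells with it 33.1 CPM, a 2.34-fold difference, against 39.1 and 28.7 CPM (1.36-fold) at P1. The share of fibroblasts with a Pi16 UMI was 19.8% at P1 and 68.8% at P7. Cells with Dpep1, a dipeptidase gene, were the higher ones at P7 (58.5 against 33.3 CPM), with a smaller gap at P1 (38.3 against 31.3 CPM).

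Sparc, the collagen-binding glycoprotein, was the most abundant gene of the family and was found across nearly all classes. It was detected in 99.1% to 100% of the cells of each class other than macrophages, before thinning. At P1 fibroblasts had 7419 CPM, pericytes 7198, endothelium 6650, valve-type cells 5953, smooth muscle cells 4782 and endocardium 3694. At P7 the order was headed by valve-type cells with 11129 CPM, followed by fibroblasts with 9962, pericytes with 9111, endothelium with 8360, smooth muscle cells with 5201 and endocardium with 4300. All 6 of these classes were higher at P7, and the valve-type cells were nearest to 2-fold, with a log2 ratio of -0.90 (-0.93 to -0.87) against -0.43 in fibroblasts and -0.12 in smooth muscle cells. Lymphocytes were also higher at P7, with 356 CPM at P1, where 43 of 64 UMIs lay in 1 cell, and 997 CPM at P7. The whole lymphocyte gate rose less, from 747 CPM at P1 to 1054 CPM at P7. As ratios, both rises were larger than those of smooth muscle cells or endocardium. The part of background in those classes was not tested. Macrophages had 439 and 644 CPM, with 15.9% and 29.4% of thinned cells holding a UMI against 23.3% and 40.7% of lymphocytes, which is at background. Endothelial and endocardial cells with a UMI of Prox1, the regulator of lymphatic endothelium, had 3334 CPM against 6133 CPM in those without it at P1, and 4133 against 8307 CPM at P7. Epicardial-gated cells (9904 and 9468 CPM, with 23 of 40 cells lung-like at P1) and glial-gated cells (10322 and 11424 CPM) were as high as fibroblasts.

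**Figure D2:**
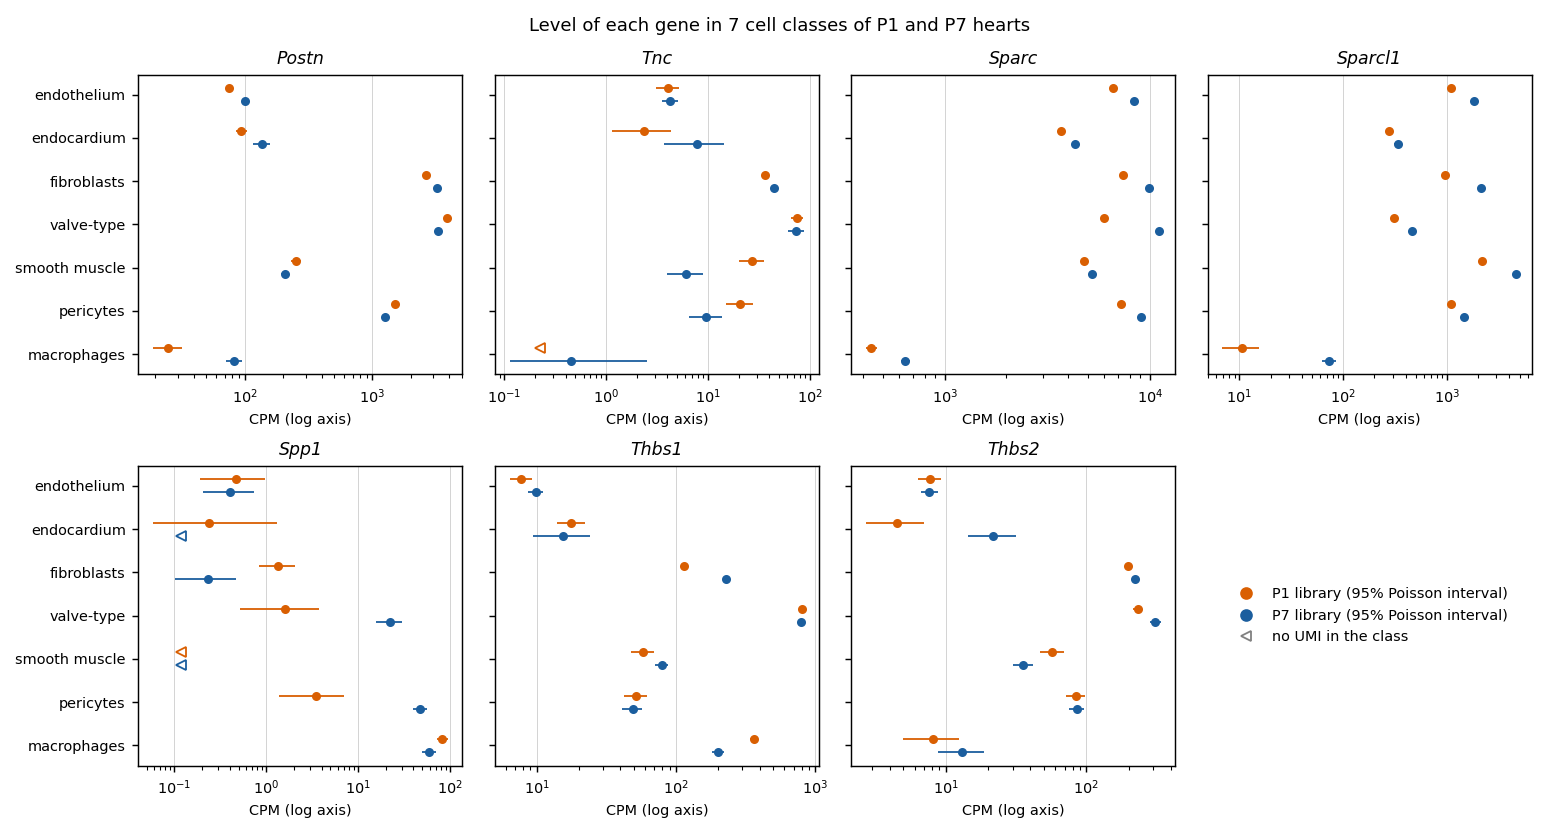
CPM of each gene (log axis) in 7 classes of the P1 and P7 libraries, with 95% Poisson intervals; open triangles mark a class without a UMI of the gene. Sparc was high in every class but macrophages, Sparcl1 peaked in smooth muscle cells (2186 and 4666 CPM), and Postn, Tnc and Thbs2 shared their peak in valve-type cells and fibroblasts.

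Sparcl1, the SPARC relative known from vessel walls and brain, was the member with a 2-fold difference between the libraries as a whole, and also in fibroblasts and smooth muscle cells. Its level in all kept cells was 830 CPM at P1 and 1895 CPM at P7, 2.28-fold higher at P7 (log2 ratio -1.19, -1.21 to -1.18). Smooth muscle cells had the most at both ages, with 2186 CPM at P1 and 4666 CPM at P7 (log2 ratio -1.09, -1.14 to -1.05), and stood 1.98-fold and 2.18-fold above the next class. As a mean of the CPM of single cells the smooth muscle ratio was -0.89, under 2-fold, as it was after thinning. In fibroblasts the level was 963 CPM at P1 and 2137 CPM at P7, a 2.22-fold difference (log2 ratio -1.15, -1.18 to -1.13). The endothelium had 1090 and 1837 CPM (1.69-fold), pericytes 1106 and 1455 CPM (1.32-fold), valve-type cells 307 and 462 CPM (1.51-fold) and the endocardium 277 and 338 CPM (1.22-fold), all higher at P7 but under 2-fold. The order after smooth muscle thus differed, since pericytes and endothelium were level at P1 (1.02-fold, log2 interval -0.04 to 0.08) and fibroblasts passed both at P7. The lymphocyte background rose to 189 CPM at P7, by more than the levels of valve-type cells or endocardium. Its part in the differences of these classes was not tested. In the endocardium the log2 ratio was -0.29, but 0.24 with gate markers at 3 UMIs. Macrophages had 26 UMIs at P1 and 162 at P7 (10.5 and 73.1 CPM), below the 189 CPM of P7 lymphocytes, and 47 of the 162 came from 1 cell. After thinning, 79.1% of fibroblasts at P1 and 94.4% at P7 had a UMI of Sparcl1, as did 72.8% and 95.1% of smooth muscle cells and 78.5% and 91.5% of endothelial cells.

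Within classes Sparcl1 differed between vessel and fibroblast subsets. Endothelial and endocardial cells with Car4, a capillary marker, had 1213 CPM against 652 CPM without it at P1, and 2008 against 1559 CPM at P7. The Prox1 cells were low, with 304 against 942 CPM at P1 (log2 ratio -1.63, -1.81 to -1.46) and 767 against 1801 CPM at P7 (-1.23, -1.34 to -1.12). Cells with the arterial gene Gja5 were also lower, with 605 against 924 CPM and 1078 against 1812 CPM. Fibroblasts with and without Pi16 were alike at P1 (971 and 960 CPM, log2 interval of the difference -0.04 to 0.07), whereas at P7 those with Pi16 had 2372 CPM and those without it 1487 CPM (1.60-fold). Both Pi16 subsets were higher at P7 than at P1.

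Thbs1, whose product binds CD36 and CD47 and is stored in platelets, was found in stromal and in myeloid classes. Valve-type cells led with 798 CPM at P1 and 787 CPM at P7, a log2 ratio of 0.02 (-0.08 to 0.12). Macrophages came next at P1 with 361 CPM, above 114 CPM in fibroblasts, whereas at P7 fibroblasts had 228 CPM and macrophages 200 CPM. The fibroblast level was 2.01-fold higher at P7 (log2 ratio -1.005, -1.08 to -0.93), at the 2-fold line itself, with -0.86 when the gate asked for 3 UMIs of Pdgfra, and the macrophage level was 1.80-fold higher at P1 (log2 ratio 0.85, 0.68 to 1.01). Endothelium (7.75 and 9.89 CPM) and endocardium (17.8 and 15.5 CPM) were low, and 54 of the 75 endocardial UMIs at P1 came from 1 cell. Outside the 7 classes, neutrophil-gated cells (120 and 43 cells) had 516 and 882 CPM and platelet-type cells (20 and 11 cells) 958 and 810 CPM, the latter with 560 and 2095 CPM of Postn beside it. Lymphocytes do not give a background for Thbs1: the whole gate had 421 and 65.0 CPM in the P1 and P7 libraries, and the gate without S100a8 or Fcer1g cells had 0 UMIs and 10.6 CPM. Immediate early genes respond to cell handling. Summed over the 16 on the list, fibroblasts had a level of 7882 CPM in the P1 library and 8608 CPM in the P7 library. Of 15 genes, 0 were at least 2-fold higher at P1 (5.79% of all genes) and 2, Klf2 and Klf4, at P7 (4.61%). By any amount, 9 of the 15 were higher at P1, with a median log2 ratio of 0.21, unlike the sum. Macrophages had 12784 and 15840 CPM, with 0 of 15 past 2-fold at P1 (3.09% of all genes) or at P7 (4.92%). By any amount, 0 of these 15 were higher at P1, with a median log2 ratio of -0.30. The part of handling in the Thbs1 levels was not tested.

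Within classes Thbs1 was unevenly spread. Macrophages with a UMI of Ly6c2, a monocyte gene, had 799 CPM against 185 CPM without it at P1 (4.32-fold) and 738 against 98.7 CPM at P7 (7.47-fold). Ly6c2 cells made up 52 of 203 macrophages at P1 and 34 of 199 at P7. The part of this share in the difference of the class between the ages was not tested. A split on Ccr2, also a monocyte gene and added after the Ly6c2 values were seen, gave 565 against 135 CPM and 406 against 67.0 CPM. Among macrophages with Timd4, a resident macrophage marker, 1 of 5 cells at P1 held 25 UMIs of Thbs1, and none of 15 cells at P7 had a UMI. Valve-type cells with Wif1, a secreted WNT inhibitor, had 901 against 748 CPM at P1 and 1052 against 393 CPM at P7. Wif1 cells were thus higher at P7 and the others lower, beside a nearly level class sum. They made up 66 of 211 valve-type cells at P1 and 62 of 104 at P7, and the part of this share in the class level was not tested. In fibroblasts Thbs1 was higher with Pi16 (173 against 94.8 CPM at P1 and 252 against 163 CPM at P7) and lower with Gdf10 (47.6 against 129 CPM and 106 against 239 CPM). Within each Pi16 subset the difference between the ages was under 2-fold. The part of the larger Pi16 share at P7 in the class level was not tested. Prox1 endothelial cells had 43.4 against 8.27 CPM at P1 and 102 against 7.17 CPM at P7, with 59 of the 91 P7 UMIs in 1 cell. The Gja5 cells of P1 (74.6 against 7.32 CPM) had 54 of their 56 UMIs in 1 cell.

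**Figure D3:**
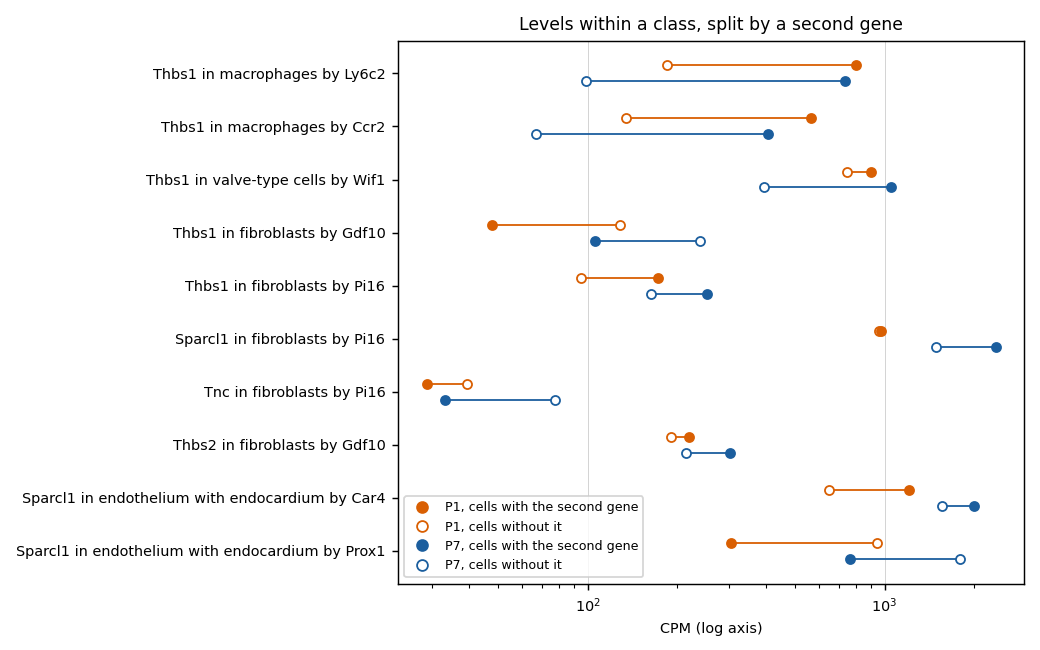
CPM (log axis) of 4 genes in cells of a class with at least 1 UMI of a second gene (filled) and without it (open), in each library; no interval is drawn. In macrophages split by Ly6c2, Thbs1 stood at 799 against 185 CPM at P1 and at 738 against 98.7 CPM at P7.

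Thbs2, the thrombospondin of fibroblast matrix, kept to the stromal classes and differed little between the ages. Valve-type cells had 231 CPM at P1 and 309 CPM at P7, fibroblasts 197 and 221 CPM, pericytes 84.0 and 85.3 CPM and smooth muscle cells 57.0 and 35.4 CPM. Each of these steps was beyond counting error in both libraries. The log2 ratio was -0.17 (-0.23 to -0.11) in fibroblasts and -0.42 (-0.59 to -0.26) in valve-type cells. Fibroblasts held 49.6% of the Thbs2 UMIs of the P1 library and 60.2% of those of the P7 library. Cells in none of the gates held 21.7% and 22.0%. The endocardium had 19 UMIs at P1 and 28 at P7 (4.50 and 21.7 CPM, log2 ratio -2.26, -3.20 to -1.38), the P7 value lying close to the 23.3 CPM of lymphocytes. Dividing fibroblasts had less Thbs2 at P1, with 147 against 214 CPM (1.45-fold), and a smaller gap at P7, with 200 against 225 CPM (1.13-fold). In contrast to Thbs1, it was higher in Gdf10 cells, with 220 against 191 CPM at P1 and 302 against 214 CPM at P7. Epicardial-gated cells had 113 CPM at P1, where 23 of 40 were lung-like, and 219 CPM at P7, where 2 of 17 were.

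**Figure D4:**
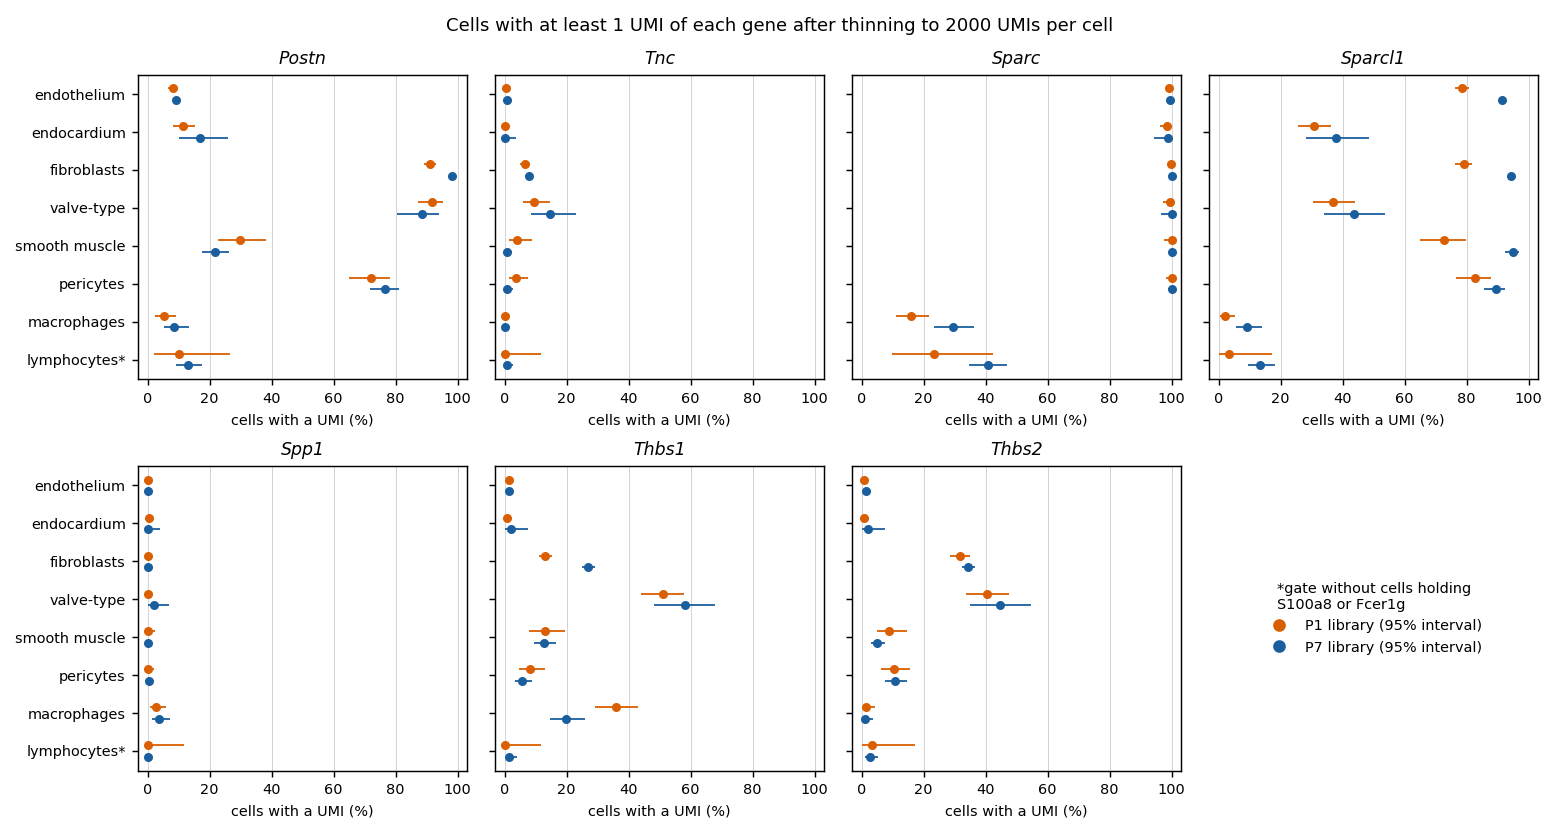
Percent of cells with at least 1 UMI of each gene after thinning every cell to 2000 UMIs, with 95% Clopper-Pearson intervals, in 7 classes and in lymphocytes without S100a8 or Fcer1g. Sparc and Postn reached over 90% of fibroblasts, Thbs1 51.0% and 58.3% of valve-type cells, and Tnc no more than 14.6% of any class drawn.

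Spp1, the osteopontin gene, lay mostly in a few cells. The P1 library had 285 UMIs of Spp1 in 57 cells and the P7 library 609 UMIs in 65 cells. At P1 a single macrophage held 132 UMIs, 46.3% of the library's total, and at P7 the 7 cells with at least 20 UMIs held 81.8%. Macrophages had 203 UMIs at P1 and 130 at P7 (82.2 and 58.7 CPM), in 11.3% and 8.54% of cells, and 132 and 69 of these UMIs came from the top cell. The P7 sum leaves out a cell in no gate with 110 UMIs of Spp1 and 110 of Lyz2. It also leaves out cells with 95 and 30 UMIs that passed gates of more than 1 lineage. These held 13 and 15 UMIs of the gate gene Csf1r and 60 and 79 of C1qa. Pericytes had 7 UMIs at P1 and 143 at P7 (3.44 and 47.5 CPM), but 142 of the 143 lay in 1 cell, which also carried 156 UMIs of Postn and 138 of Col1a1 beside 2 of the gate gene Kcnj8. Valve-type cells had 5 UMIs at P1, all in 1 cell, and 37 at P7, 28 of them in 1 cell (1.61 and 22.0 CPM). Without the top cell of each library the sum fell under the 20 UMIs that a call needs. No P1 valve-type cell then had a UMI, so the ratio rested on the 0.5 UMIs added to each sum. The log2 ratio was between -6.83 and -3.34 over the settings tried, a range that for this reason does not show how firm it is. Fibroblasts had 21 UMIs at P1 and 8 at P7 (1.35 and 0.235 CPM, log2 ratio 2.46, 1.29 to 3.90), 7 of the 21 in 1 cell, and the log2 ratio was 0.37 after thinning. No smooth muscle cell had a UMI in either library, with upper limits of 1.965 CPM at P1 and 0.864 CPM at P7. The macrophages without Ccr2 were higher at P1 (146 against 24.7 CPM) and lower at P7 (23.8 against 112 CPM), each time on the side that held the top cell.

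**Figure D5:**
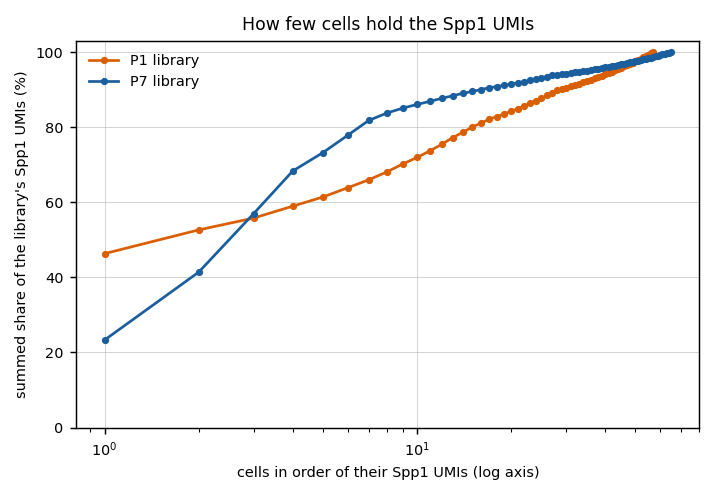
Summed percent of each library's Spp1 UMIs against the rank of cells ordered by their Spp1 UMIs (log axis). The first P1 cell held 46.3%, and the first 7 P7 cells held 81.8%.

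Over the 14 points given by 7 classes in 2 libraries, the log2(CPM + 1) levels of Postn, Tnc and Thbs2 were alike, with Pearson r of 0.91 for Postn with Tnc, 0.95 for Postn with Thbs2 and 0.90 for Tnc with Thbs2. Sparc and Sparcl1 were alike at 0.83. Spp1 correlated at or below 0.49 with every other member, and Thbs1 was nearest to Thbs2 at 0.63. These are descriptions, because the points share libraries, free RNA and gates. Among 13003 genes with at least 200 UMIs, the 3 most like each member were Sox9 (0.98), Tmem45a and Qpct for Postn, Plod2 (0.97), Shd and Ckap4 for Tnc, and Col1a2 (0.99), Col16a1 and Mmp23 for Thbs2. For Sparc they were Serpinh1 (0.98), the collagen chaperone, with Rnf11 and Eef1akmt2, and for Sparcl1 they were Spa17 (0.95), Mb21d2 and Gprc5b. For Thbs1 they were Mthfd2 (0.91), Csgalnact2 and Smim3, and for Spp1 they were Gpr108 (0.90) and the MHC class II genes H2-Eb1 and H2-Aa. From cell to cell within thinned fibroblasts the members were nearly unrelated, with Spearman rho between -0.04 and 0.20 at P1 and between -0.10 and 0.12 at P7. Counts of Tnc, Thbs1 and Thbs2 were sparse after thinning, and cells of 1 library are not replicates, so these values are a description only.

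Receptors of these proteins were found in every class. Of 12 receptor genes on the list, 0 passed 2-fold in all kept cells in either direction, against 8.88% of all genes at P1 and 4.07% at P7. The highest receptor level was that of Cd36, the thrombospondin receptor that also takes up fatty acids, with 1922 CPM at P1 and 1177 CPM at P7 in the endothelium. Itgb1, the common integrin beta chain, led in fibroblasts (600 and 607 CPM), smooth muscle cells (884 and 762 CPM) and pericytes (924 and 927 CPM). Cd47 led in macrophages with 427 and 445 CPM. In fibroblasts Itga8, an osteopontin and tenascin receptor chain, was higher at P1 (80.9 against 38.9 CPM) and Itga9, which binds the same ligands, was higher at P7 (18.7 against 43.6 CPM). In the endothelium 1 of 12 was higher at P1 (3.95% of all genes), Itga8 (2.81 and 1.11 CPM). At P7 1 was higher (4.24%), Cd44 (11.9 and 29.4 CPM). In macrophages 0 of 10 were higher at P1 (3.09%) and 2 at P7 (4.92%). These were Cd36 (56.3 and 189 CPM) and Stab1, a scavenger receptor that takes up SPARC (173 and 358 CPM). No background is given for the receptor genes. The part of free RNA in low levels, such as Cd36 in macrophages or Itga8 in the endothelium, was not tested.

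Of 17 other genes of the same families, 11 had at least 20 UMIs in all kept cells, of which 4 were at least 2-fold higher at P1 (Tnn, Tgfbi, Smoc1 and Spock2), against 8.88% of all genes, and 3 at P7 (Thbs4, Tnxb and Smoc2), against 4.07%. The median log2 ratio of the 11 was -0.25, against 0.00 for all genes tested. In fibroblasts 2 of 9 were higher at P1 (5.79% of all genes), Smoc1 (22 and 2 UMIs) and Spock2 (5.32 and 1.00 CPM), and 1 at P7 (4.61%), Thbs4, with 8 UMIs at P1 and 332 at P7 (0.51 and 9.75 CPM). The endothelium had 3 of 8 at P1 (3.95%) and 2 at P7 (4.24%), and macrophages 0 of 5 at P1 (3.09%) and 3 at P7 (4.92%), Tnxb, Smoc2 and Fstl1, genes of stromal cells. Valve-type cells had 1 of 8 at P1 (4.10%) and 4 at P7 (2.77%). Among the latter were the cartilage and tendon thrombospondins Thbs4, with 67.5 CPM at P1 and 357 CPM at P7 (log2 ratio -2.40), and Comp, with 57.8 and 363 CPM (log2 ratio -2.65), beside the Thbs1 levels of 798 and 787 CPM given above. Smooth muscle cells had 3 of 6 at P1 (4.78%) and 0 at P7 (3.11%). Among these was Tgfbi, the close relative of Postn, with 301 UMIs at P1 and 7 at P7 (160 and 1.64 CPM). Without the 21 lung-like cells among the P1 smooth muscle cells, 14 UMIs of Tgfbi were left at P1 and 7 at P7 (8.61 and 1.71 CPM).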

How the data were processed

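Per the labels and the methods of the study, the authors aligned droplet single cell RNA-seq reads to mouse mm10 (GRCm38) with Cell Ranger 3.1.0 and deposited UMI counts per gene and barcode, with no normalization, for 1 library of P1 and 1 of P7 hearts. Both tables list 31053 genes, and the libraries held 7836 and 9077 barcodes with 63585504 and 98346195 UMIs. The study's upper limit of 8000 genes was used, while its mitochondrial limit was not given as a number in the sources used here, so its own cell set could not be rebuilt. No doublet caller was run, and cells passing gates of more than 1 lineage were left out instead. The libraries shared 13 barcode sequences among kept cells. The lymphocyte gate without S100a8 or Fcer1g cells was chosen after seeing the data.

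Class gates asked for 2 UMIs of the marker (1 for Npr3, Fmod and Scx), and mural cells went to the higher of Myh11 and Kcnj8. Ratios had 0.5 UMIs added to each sum, and a difference counts as past 2-fold with an absolute log2 ratio of at least 1 and at least 20 UMIs. Intervals are exact (Poisson for sums, conditional binomial for ratios, Clopper-Pearson for shares), and a sum of 0 is given with its upper Poisson limit. Members, gene lists and gates were chosen with earlier results of these data known. The genes named are the 7 members, the 3 genes most like each, list members past 2-fold and the leading receptors. Analyses ran in Python 3.11.15 with numpy 2.4.6 and scipy 1.17.1, and the ratio and interval code was tested on simulated data. Promoter windows were found for 5 of the 7 members in the RefSeq table, not for Sparcl1 and Thbs1.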

Additional observations from a re-analysis of the deposited data

Results flagged for a closer look

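The difference between P1 and P7 ran in opposite directions in 2 classes, each past 2-fold, for 2 genes. Tnc was higher at P1 in smooth muscle cells and in pericytes and higher at P7 in the endocardium, a gap of 3.86 in log2 ratio between smooth muscle cells and endocardium and of 2.81 between pericytes and endocardium. The endocardial side rests on 10 UMIs in each library, and its P7 level of 7.76 CPM lies within the P7 lymphocyte interval of 2.54 to 9.75 CPM. Without lung-like cells the Tnc log2 ratio was 1.38 in smooth muscle cells and 0.64, under 2-fold, in pericytes. Spp1 was higher at P1 in fibroblasts and higher at P7 in valve-type cells and in pericytes, gaps of 6.12 and 6.16 in log2 ratio, with 142 of the 143 pericyte UMIs and 28 of the 37 valve-type UMIs at P7 in 1 cell each. All 5 valve-type UMIs at P1 were also in 1 cell, and the fibroblast log2 ratio was 0.37 after thinning. None of these differences was tested, because each age has 1 library.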

How the results depend on the processing

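No paired analysis was possible because each age is 1 library, and no replicate could be left out for the same reason. The count of members past 2-fold moved by over 1.5 times under these settings. With cells of more than 1 lineage kept, it went from 0 to 1 in the endothelium, from 2 to 1 in pericytes and from 2 to 4 in macrophages. Without lung-like cells it was 1 in endocardium and 1 in pericytes (2 each in the main setting), where Tnc in endocardium fell under 20 UMIs at a log2 ratio of -1.73 in place of -1.71. After thinning to 2000 UMIs it was 0 in endocardium, valve-type cells (1 before), smooth muscle cells (2 before) and pericytes. With gate markers at 3 UMIs it was 1 in endocardium, 1 in fibroblasts (3 before), 1 in pericytes and 5 in macrophages (2 before), and with markers at 1 UMI 0 in pericytes and 1 in macrophages. The mean of per-cell CPM gave 1 in smooth muscle cells. Leaving out the cell with most UMIs of each gene, chosen after seeing the data, gave 0 in valve-type cells and 1 in pericytes. Spp1 in valve-type cells was then under 20 UMIs, with no UMI left at P1. The cause was not tested, though thinning leaves fewer UMIs to reach the minimum of 20. Of 166 values of the 13 P1 to P7 ratios past 2-fold, 3 reversed. These were Postn in macrophages with gate markers at 1 UMI (0.94) and Spp1 in pericytes with gate markers at 3 UMIs (2.80) or without its top cell (1.29). Of 655 values of all 52 ratios, 46 had the other sign, among them the mean of per-cell CPM in all kept cells for Thbs1 (0.37) and Tnc (0.09). The order of valve-type cells over fibroblasts for Postn at P7 (log2 0.03) turned to -0.084 as a mean of per-cell CPM, -0.0079 after thinning, -0.0067 with gate markers at 3 UMIs and -0.0085 without the top cell. The ratio of Sparcl1 in all kept cells stayed between -1.21 and -1.10, and in fibroblasts between -1.17 and -1.09. With a minimum of 50 UMIs the share of all genes past 2-fold was 10.2% in place of 12.9% in all kept cells. It was 5.67% in place of 8.19% in endothelium, 4.78% in place of 8.21% in endocardium and 7.71% in place of 10.4% in fibroblasts. Valve-type cells had 4.08% in place of 6.88% and smooth muscle cells 4.86% in place of 7.89%. Pericytes had 3.21% in place of 6.02% and macrophages 4.91% in place of 8.01%. A level near 10 UMIs, as for Tnc in endocardium, is limited by depth.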
